A study of Mus musculus with 9 samples.

Results

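Genes of 7 solute carrier families that carry amino acids and neurotransmitters across membranes were followed in sorted mouse fibroblasts. They are all protein-coding rows of the deposited table whose symbols belong to the families Slc1, Slc3, Slc6, Slc7, Slc36, Slc38 and Slc43, except 1 gene of these families that the selection leaves out. This gave 47 genes of the 27370 in the table, with 7 in Slc1, 2 in Slc3, 13 in Slc6, 8 in Slc7, 4 in Slc36, 10 in Slc38 and 3 in Slc43. The rule uses names and gene type only, but the genes were chosen with earlier results of these data known.

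Polyadenylated RNA was sequenced from 9 libraries of stromal cells, 3 per group, and every library pooled 2 mice. All mice, controls included, were 4 months old and carried Wt1CreERT2, RosatdTomato and CD64DTR, so that cells with a history of Wt1 expression are red and cells that use the CD64 promoter are killed by diphtheria toxin. The first group is tdTomato+ red pulp fibroblasts (RPF) of spleens from 6 toxin-treated mice, called depleted because the toxin removes CD64+ macrophages. The second is RPF of spleens from 6 untreated mice at steady state, and the third is tdTomato- fibroblastic reticular cells (FRC) sorted from lymph nodes of 6 untreated mice. The whole study used 12 mice, so steady-state RPF and FRC came from the same 6 animals. CD45- cells were enriched and then stained for CD45, gp38, CD31 and VCAM1, and 45000 cells were sorted per group. The depleted mice received the toxin and lost macrophages together, so effects of the toxin and of macrophage loss cannot be told apart, and organ and cell type cannot be told apart between RPF and FRC.

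Amino acid carriers set how much building material for protein, polyamines and glutathione a cell can draw from its surroundings. Many work as exchangers that let 1 amino acid out to take another in, and several Slc7 light chains reach the cell surface only when bound to the heavy chain Slc3a2. When amino acids run short, the factor ATF4 turns on amino acid synthesis genes and several of these carriers, and arginine and leucine signal to mTORC1 at the lysosome, partly through the carrier Slc38a9. The Slc6 family and the glutamate carriers of Slc1 are best known for clearing neurotransmitters in the brain.

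Library totals ran from 25414645 to 43879806 counts, and scaling (TMM) factors from 1.05 to 1.07 in depleted RPF, 1.17 to 1.2 in steady-state RPF and 0.764 to 0.826 in FRC. Levels below are CPM computed with TMM-scaled library totals (TMM CPM). The spleen stroma markers Wt1, Tlx1, Nkx2-5, Tcf21 and Nkx3-2 summed to 469 to 610 TMM CPM in depleted RPF and 1207 to 1445 in steady-state RPF, against 1.77 to 6.16 in FRC. The lymphoid zone markers Ccl19, Ccl21a, Cxcl13, Bst1 and Tnfsf11 summed to 148 to 250 TMM CPM in depleted RPF and 71.0 to 111 in steady-state RPF, against 2665 to 3121 in FRC. Most of the RPF sums was Cxcl13, which averaged 173 TMM CPM in depleted and 72.1 in steady-state RPF. Tnfsf11 averaged 4.95 and 0.0242 in these groups, while Ccl19 had a lower mean in depleted RPF (12.9) than in steady-state RPF (18.4). Ccl21a and Bst1 averaged at most 0.646 in either RPF group. The 9 fibroblast markers summed to 5712 to 6324 TMM CPM in depleted RPF, 6621 to 7711 in steady-state RPF and 55160 to 59584 in FRC. Of these, Pdpn, which encodes gp38, averaged 0.0733 TMM CPM in depleted RPF, 0.0981 in steady-state RPF and 74.1 in FRC. In the same order Dcn averaged 12.3, 30.6 and 26902 TMM CPM and Lum 6.63, 7.94 and 5418. Pdgfra averaged 442, 358 and 673 TMM CPM, Vcam1 1035, 1590 and 2983, and Pdgfrb 2331, 942 and 515. All fibroblast markers but Pdgfrb had their highest mean in FRC. RPF replicate 1 at steady state and FRC replicate 1 each had fewer than 10 counts on Y-linked genes.

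Of the 47 genes, 45 had at least 1 count in some library, and Slc1a7 and Slc6a12 had none. The filter on low counts left 30 to be tested among 15103 genes. The 17 others never passed 7.65 TMM CPM in any library. Among them the GABA carrier Slc6a13, the dopamine carrier Slc6a3, the proline carrier Slc6a7 and Slc6a19, the neutral amino acid carrier of gut and kidney, reached at most 0.728 TMM CPM, and Slc38a8 at most 0.0607. Of the 13 Slc6 genes, which hold most of the neurotransmitter carriers, 3 were tested, and these were the taurine carrier Slc6a6, the creatine carrier Slc6a8 and the glycine carrier Slc6a9. All 8 Slc7 genes were tested.

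Levels can be compared between genes only per length, here per kilobase of the median transcript length in the deposited table. Slc43a3, a member of the family by sequence that is known to carry purine nucleobases and not amino acids, ranked first in all 3 groups. It averaged 1208 ± 200 TMM CPM per kilobase in depleted RPF, 821 ± 109 in steady-state RPF and 1965 ± 176 in FRC (SD, n = 3 each), which was 33.3%, 33.2% and 41.4% of the sum over the 47 genes. Slc7a5, the light chain LAT1 for large neutral amino acids, ranked second per kilobase in depleted and in steady-state RPF and ninth in FRC. In FRC, Slc1a5 took rank 2 per kilobase and Slc3a2 rank 3, directly after Slc43a3. With the exon-union lengths of GENCODE M21 in place of the deposited lengths, Slc43a3 and Slc7a5 kept these places in both RPF groups, and Slc43a3, Slc1a5 and Slc3a2 kept theirs in FRC. Other abundant genes moved, Slc6a6 from rank 4 to rank 7 in both RPF groups and from rank 7 to rank 12 in FRC, and Slc38a2 from rank 12 to rank 10 in depleted RPF, from rank 15 to rank 8 in steady-state RPF and from rank 8 to rank 4 in FRC.

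The summed level of the 47 genes was 3576, 3024 and 3037 TMM CPM in the depleted RPF libraries, against 2193, 2191 and 2075 in the steady-state RPF libraries, and 3872, 4262 and 4405 in the FRC libraries. These sums do not overlap between any pair of groups.

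After macrophage depletion, the cationic amino acid carrier Slc7a1 rose 6.95-fold over steady-state RPF, the exchanger Slc7a6 4.75-fold, the glutamine carrier Slc1a5 2.89-fold and the heavy chain Slc3a2 2.47-fold. Other carriers of the same substrates, Slc7a2, Slc7a7, Slc38a1, Slc38a2, Slc38a5 and Slc38a7, were not called. Slc36a2 and Slc38a4, almost without counts at steady state, became detectable, the abundant Slc43a3 rose 1.47-fold, and Slc38a9 fell. In all, edgeR's quasi-likelihood test called 7 genes higher and 1 lower of the 30 tested, which is 26.7%, where it called 21.0% of all 15103 genes (11.1% higher and 9.96% lower). The median log2 fold change was 0.37 over the 30 genes and -0.09 over all genes tested. The libraries of both RPF groups did not overlap for 13 of the 30 genes, where they did not for 44.4% of all genes tested. Without both libraries short of Y-linked counts 7 genes were called, 5 of them among these 8, and 14.2% of all genes tested. Without steady-state RPF replicate 1 alone 5 were called, all among these 8, and 14.4% of all genes tested. In sorted bulk samples, fewer cells of a type and less RNA per cell cannot be told apart.

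**Figure D1:**
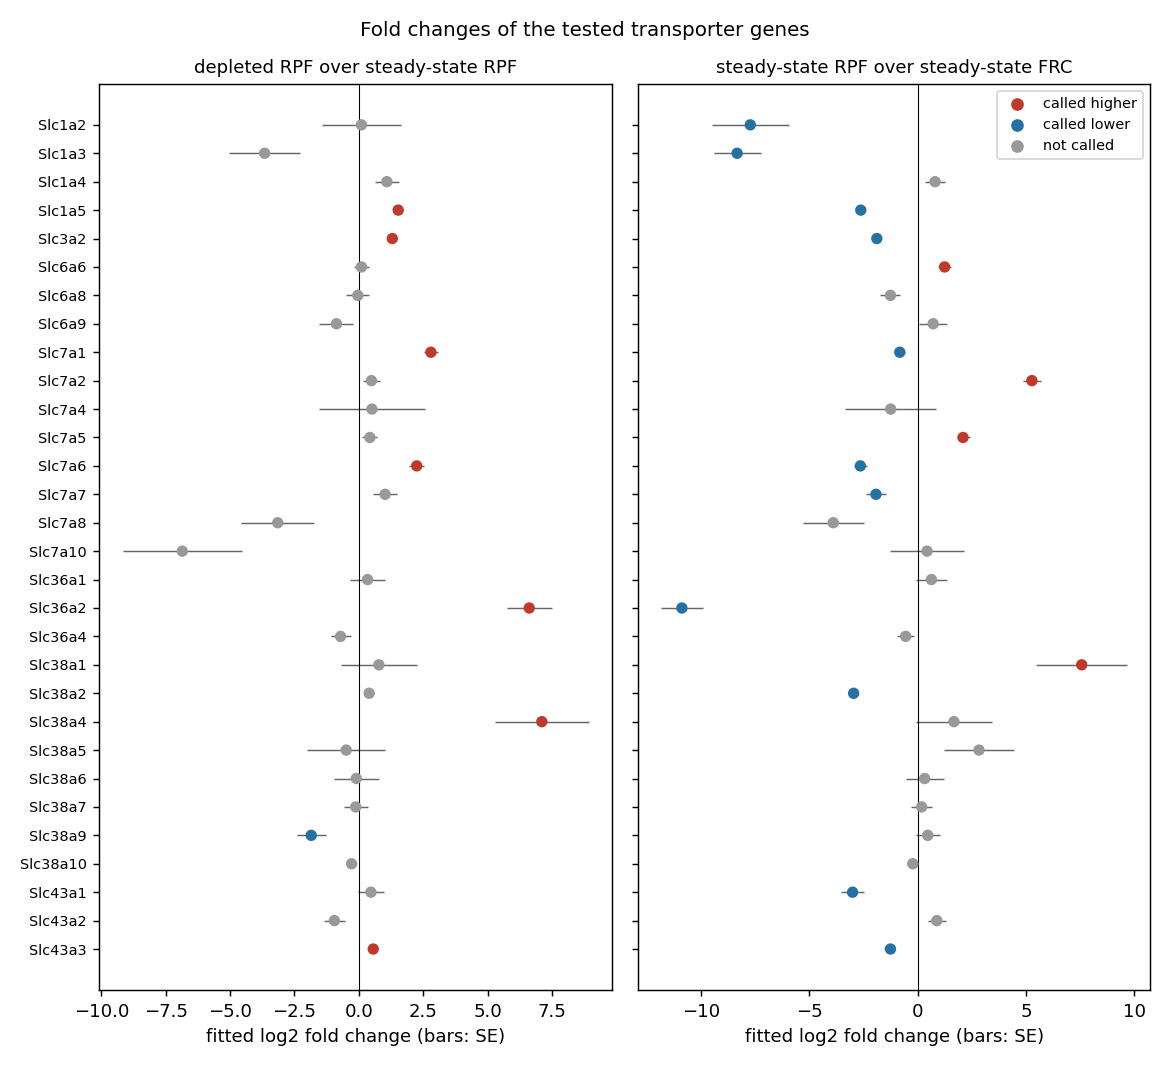
Fitted log2 fold changes (points, with standard errors as bars) of the 30 tested transporter genes, for depleted over steady-state RPF on the left and steady-state RPF over FRC on the right. Red marks genes called higher and blue genes called lower at an edgeR adjusted p under 0.05. After depletion 7 genes were higher and 1 lower, and in steady-state RPF 4 were higher and 11 lower than in FRC.

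Slc7a1 (CAT1, chromosome 5, 148327410 to 148399904 in mm10) is the widely expressed carrier of arginine, lysine and ornithine. It had 276, 185 and 202 TMM CPM in depleted RPF, against 33.2, 28.3 and 33.8 in steady-state RPF. The lowest depleted library was above the highest steady-state one by a wide margin, and the depleted libraries also exceeded the 60.7, 72.8 and 36.3 TMM CPM of FRC. The log2 fold change over steady-state RPF was 2.80 (SE 0.27, edgeR adjusted p = 0.000189).

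Slc7a2 (CAT2), which carries the same amino acids and is known to feed arginine to nitric oxide synthase and arginase in macrophages, was the more abundant cationic carrier in RPF. It had 583, 433 and 504 TMM CPM in depleted RPF, against 408, 362 and 312 in steady-state RPF. The libraries did not overlap, but the log2 fold change of 0.49 (SE 0.33) missed the threshold at an edgeR adjusted p of 0.364. It passed with limma-voom (adjusted p = 0.0361) and in a fit of both RPF groups alone (adjusted p = 0.0445). Per kilobase, Slc7a1 and Slc7a2 together came to 298, 211 and 239 TMM CPM in depleted RPF, against 128, 113 and 102 in steady-state RPF. This sum depends on the lengths used. With the exon-union lengths Slc7a1 averaged 19.2 TMM CPM per kilobase in depleted and 2.76 in steady-state RPF, and Slc7a2 55.5 and 39.5.

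Slc3a2 (chromosome 19, 8706882 to 8723369) encodes 4F2hc, or CD98, the heavy chain that brings its light chains to the cell surface. It had 328, 270 and 261 TMM CPM in depleted RPF, against 93.3, 127 and 129 in steady-state RPF. All 3 depleted libraries lay above the steady-state ones (log2 fold change 1.30, SE 0.19, edgeR adjusted p = 0.0013). The other heavy chain, Slc3a1, which serves cystine uptake in kidney and gut, had no count in depleted RPF and at most 0.375 TMM CPM elsewhere.

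Of the 5 light chains of Slc3a2 in the set, 1 rose. Slc7a6 (y+LAT2, chromosome 8, 106168857 to 106198706), which exchanges cationic amino acids for neutral ones with sodium, had 108, 80.6 and 74.1 TMM CPM in depleted RPF, against 18.6, 25.1 and 11.5 in steady-state RPF. Every depleted library was above every steady-state one (log2 fold change 2.25, SE 0.30, edgeR adjusted p = 0.001). Its close relative Slc7a7 (y+LAT1) had 9.68, 17.6 and 28.4 TMM CPM in depleted RPF, against 11.1, 9.12 and 7.28 in steady-state RPF, with overlap between the groups (log2 fold change 1.02, SE 0.45, edgeR adjusted p = 0.152).

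Slc7a5 had 402, 301 and 265 TMM CPM in depleted RPF, against 208, 307 and 203 in steady-state RPF. Replicate 2 at steady state lay among the depleted libraries, and the log2 fold change of 0.43 (SE 0.29) did not pass (edgeR adjusted p = 0.347). The remaining light chains were scarce in RPF. Slc7a8 (LAT2) reached at most 0.574 TMM CPM in depleted and 3.01 in steady-state RPF, and Slc7a10 (Asc-1, a carrier of small neutral amino acids such as serine and glycine) had 0 counts in depleted RPF and at most 0.809 TMM CPM in steady-state RPF. Neither passed the test.

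**Figure D2:**
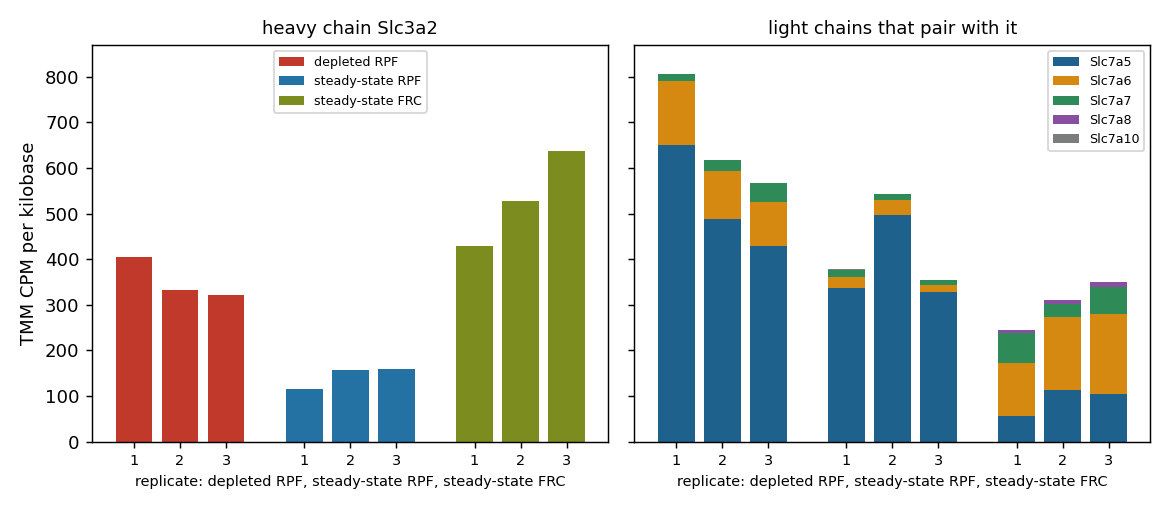
Level per library in TMM CPM per kilobase of the heavy chain Slc3a2 (left) and of the 5 light chains that bind it, stacked (right), for the 3 libraries each of depleted RPF, steady-state RPF and FRC. Slc3a2 lay between 322 and 404 in depleted RPF, between 115 and 158 in steady-state RPF and between 430 and 637 in FRC, while the light chains summed to 566 to 806, 356 to 544 and 245 to 349 in the same order.

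Slc1a5 (ASCT2, chromosome 7, 16781340 to 16798274) exchanges glutamine and other small neutral amino acids with sodium. It had 317, 242 and 304 TMM CPM in depleted RPF, against 122, 78.5 and 98.6 in steady-state RPF. The groups were well apart, with a log2 fold change of 1.53 (SE 0.18, edgeR adjusted p = 0.000455). Slc1a4 (ASCT1), which prefers serine, alanine and cysteine, had 24.3, 21.6 and 30.1 TMM CPM in depleted RPF, against 15.5, 10.5 and 9.56 in steady-state RPF. Its libraries did not overlap either, and its log2 fold change of 1.09 (SE 0.47) had an edgeR adjusted p of 0.143.

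The sodium-coupled Slc38 carriers gave mixed values. Slc38a2 (SNAT2), the system A carrier known for its induction when amino acids are short, had 98.3, 67.6 and 111 TMM CPM in depleted RPF, against 83.1, 66.0 and 61.3 in steady-state RPF, with overlap and no call (log2 fold change 0.40, SE 0.19, edgeR adjusted p = 0.191). Slc38a4 (SNAT4, chromosome 15, 96994820 to 97055956), the system A carrier of liver and placenta, had 6.52, 3.75 and 7.56 TMM CPM in depleted RPF, against 0, 0 and 0.132 in steady-state RPF and 0, 0 and 0.0298 in FRC. Its counts summed to 705 in depleted RPF, against 4 in steady-state RPF and 1 in FRC. The fitted log2 fold change of 7.11 (SE 1.82, edgeR adjusted p = 0.0235) rests on those few counts, and 6 of 19 alternative settings took the adjusted p above 0.05, up to 0.0715. These included leaving out depleted replicate 1 (adjusted p = 0.0658) or 3 (0.0691) and steady-state RPF replicate 1 (0.0669) or 2 (0.0693).

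Slc38a9 (chromosome 13, 112660751 to 112738749), the lysosomal carrier that reports arginine to mTORC1, was the gene called lower. It had 7.93, 5.21 and 6.02 TMM CPM in depleted RPF, against 32.9, 26.9 and 9.13 in steady-state RPF. The steady-state libraries spread widely and replicate 3 lay close to the depleted ones (log2 fold change -1.85, SE 0.57, edgeR adjusted p = 0.0488). The call was lost under 9 of 19 alternative settings, with adjusted p values between 0.00556 and 0.182 over all of them; leaving out any of the 3 depleted libraries (0.0931, 0.143 and 0.13), steady-state RPF replicate 1 (0.158) or 2 (0.133), or FRC replicate 1 (0.064) ended it. Slc38a10, an abundant relative whose transport role is little known, had 255, 225 and 295 TMM CPM in depleted RPF, against 286, 305 and 349 in steady-state RPF, with overlap and no call (edgeR adjusted p = 0.165).

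Slc36a2 (PAT2, chromosome 11, 55158470 to 55185077) takes up small amino acids such as glycine and proline together with protons. It had 1.55, 4.18 and 6.43 TMM CPM in depleted RPF, against 0, 0.0987 and 0 in steady-state RPF and 93.6, 78.4 and 63.4 in FRC. All depleted libraries were above all steady-state RPF libraries and far below all FRC libraries. The counts summed to 497 in depleted RPF, against 5 in steady-state RPF, and the fitted log2 fold change was 6.62 (SE 0.88, edgeR adjusted p = 0.000912). All 5 steady-state counts were in replicate 2, and without it the log2 fold change was 10.20 (edgeR adjusted p = 0.00271). Slc36a1 (PAT1), its lysosomal relative, overlapped between the RPF groups at 3.27 to 14.6 TMM CPM in depleted and 4.86 to 10.5 in steady-state RPF.

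Slc43a3 (chromosome 2, 84936579 to 84958509) had 880, 807 and 630 TMM CPM in depleted RPF, against 573, 445 and 557 in steady-state RPF. The lowest depleted library stood just above the highest steady-state one (log2 fold change 0.56, SE 0.15, edgeR adjusted p = 0.0315). This call was lost under 8 of 19 alternatives, with an adjusted p of up to 0.112; among these were upper quartile scaling (0.0589) and leaving out depleted replicate 1 (0.107) or 2 (0.094), or steady-state RPF replicate 1 (0.0527), 2 (0.112) or 3 (0.0677). The branched-chain carriers of the same family were not called. Slc43a2 (LAT4) had 19.7, 25.2 and 26.8 TMM CPM in depleted RPF, against 36.7, 51.8 and 49.7 in steady-state RPF, which did not overlap but did not pass (edgeR adjusted p = 0.156), and Slc43a1 (LAT3) overlapped (edgeR adjusted p = 0.568).

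**Figure D3:**
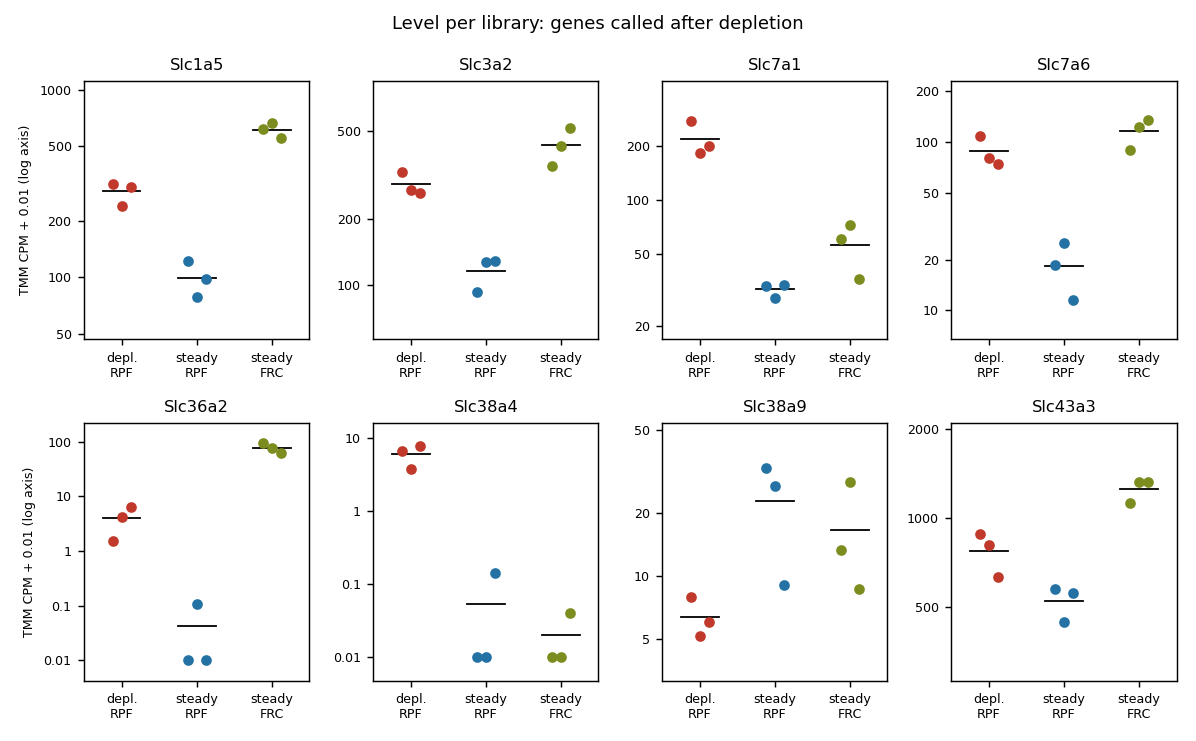
Level per library (TMM CPM plus 0.01, log axis) of the 8 transporter genes called between the RPF groups, in depleted RPF (left), steady-state RPF (middle) and FRC (right) of each panel. Points are libraries and lines are group means. For 7 genes all depleted libraries lie above the steady-state RPF libraries, and for Slc38a9 all lie below.

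The other tested genes showed no call after depletion. Slc6a6, the taurine carrier, had 173, 241 and 180 TMM CPM in depleted RPF, against 182, 228 and 144 in steady-state RPF. Slc6a8 and Slc6a9 stayed between 2.74 and 12.6 TMM CPM in both RPF groups. Slc36a4 (PAT4), Slc38a6 and the lysosomal glutamine carrier Slc38a7 had adjusted p values of 0.253, 0.964 and 0.901 by edgeR. Slc38a5 (SNAT5), a system N carrier of glutamine, had 9.59, 8.31 and 3.66 TMM CPM in depleted RPF, 4.92, 12.4 and 13.0 in steady-state RPF and 0, 0.0341 and 4.24 in FRC, and was called in neither comparison (edgeR adjusted p = 0.874 and 0.252). Slc7a4 varied more within groups than between them, from 0.0331 to 3.83 TMM CPM over the steady-state RPF libraries and from 0 to 10.7 over the FRC libraries.

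Marker genes of other cells differed between the RPF groups as well. The 13 red pulp macrophage markers in the table summed to 80.5 to 119 TMM CPM in depleted RPF, against 291 to 346 in steady-state RPF, and 5 of them, Adgre1, Cd5l, C1qa, Siglec1 and Fcgr1, were at 0 in all depleted libraries. Most of the depleted sum was Mertk, which averaged 89.3 TMM CPM there, against 84.0 in steady-state RPF, and was not called (edgeR adjusted p = 0.849). All other macrophage markers had lower means in depleted RPF. The 8 neutrophil markers summed to 2.37 to 48.2 TMM CPM in depleted RPF, against 47.3 to 350 in steady-state RPF. The 7 mural and smooth muscle markers summed to 4005 to 6291 TMM CPM in depleted RPF, against 862 to 1317 in steady-state RPF, mostly from Acta2 and Des. Of the others in this list, Notch3 was called higher, and Myh11, Rgs5, Cspg4 and Cnn1 were not called. Rgs5, Cspg4 and Cnn1 had lower means in depleted RPF (0.111, 0.0239 and 0.304 TMM CPM) than in steady-state RPF (0.138, 0.452 and 3.06). The 6 markers of B and plasma cells summed to 18.9 to 42.8 TMM CPM in depleted RPF, against 102 to 232 in steady-state RPF, mostly from Ighm, and the 7 platelet markers to 38.4 to 47.8, against 21.0 to 26.2, mostly from Pf4. Their part in the transporter values was not tested.

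RefSeq (GRCm38.p6) held promoter windows, from 250 bases before to 50 bases after a start, for 33 of the 47 genes, among them 4 of the 7 that rose. The 100 bases before the most upstream RefSeq start are shown for these 4, as the genes called higher after depletion that had a window. Capitals mark letters that match TGACNNNGC, the core of the antioxidant response element, on either strand.
Slc7a1, chr5:148399905-148400004, minus strand: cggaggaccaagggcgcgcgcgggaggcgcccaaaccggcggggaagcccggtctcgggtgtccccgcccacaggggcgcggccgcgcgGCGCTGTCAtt
Slc7a6, chr8:106168754-106168853, plus strand: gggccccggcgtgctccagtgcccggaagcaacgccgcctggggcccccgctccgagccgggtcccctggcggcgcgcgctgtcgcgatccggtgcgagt
Slc3a2, chr19:8713898-8713997, minus strand: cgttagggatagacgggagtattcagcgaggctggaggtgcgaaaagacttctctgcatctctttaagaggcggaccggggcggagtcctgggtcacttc
Slc38a4, chr15:97055957-97056056, minus strand: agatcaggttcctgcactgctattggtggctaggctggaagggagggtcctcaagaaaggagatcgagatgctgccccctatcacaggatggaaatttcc
Both Slc7 stretches are rich in G and C (79.0% for Slc7a1 and 80.0% for Slc7a6), while Slc3a2 has 57.0% and Slc38a4 53.0%, where the median of all such stretches is 55.0%. The letters TGATGNAA, the core of the C/EBP-ATF element that ATF4 binds, were sought on both strands and found in 0 of the 4 genes that rose, in 2 of the 33 genes (Slc1a4 and Slc7a7) and in 2.82% of the 10770 tested genes with a window (3.97% of all windows). TGACGTCA, the cAMP response element, was in 0 of the 4, in Slc38a6 alone of the 33, and in 3.40% of tested genes (1.79% of windows). CACGTG, an E-box, was in 0 of the 4, 7 of the 33 and 11.5% of tested genes (7.15% of windows). TGACNNNGC was in Slc7a1 and Slc7a6, in 7 of the 33 and in 17.0% of tested genes (12.4% of windows). For Slc3a2 RefSeq held 1 window, at a start inside the bounds that the deposited table gives for the gene. In Slc7a6 the match begins on the last printed base and so carries no capitals above. A match describes letters and not binding. TGATGNAA and TGACGTCA are rare and only 4 risen genes had a window, so 0 matches among them would be likely in any case. Sequence outside the windows was not searched.

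Steady-state RPF and FRC differed in which carriers they expressed. RPF had far more mRNA of the cationic carrier Slc7a2 (38.6-fold) and of the large neutral carrier Slc7a5 (4.26-fold), and more of the taurine carrier Slc6a6. RPF had almost none of the glutamate carrier Slc1a3 and the proton-coupled Slc36a2, which FRC expressed, and less of the glutamine carriers Slc1a5 and Slc38a2, of Slc3a2 and of both y+L light chains. Against FRC, edgeR called 4 of the 30 tested genes higher and 11 lower in steady-state RPF, 15 in all, where it called 25.9% of all genes tested (11.5% higher and 14.4% lower). The median log2 fold change was -0.40 over the 30 genes and -0.02 over all genes, and the libraries did not overlap for 20 of the 30, where they did not for 44.6% of all genes tested. Without both libraries short of Y-linked counts 10 genes were called, all among these 15, and 16.9% of all genes tested. The steady-state RPF libraries enter this comparison and the one on depletion, so the fold changes of both are not independent of each other.

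Markers of other cells moved with this comparison too. The red pulp macrophage markers summed to 291 to 346 TMM CPM in steady-state RPF, against 97.1 to 108 in FRC, where Cd5l was at 0. Of these, Spic and Siglec1 had higher means in FRC (26.9 and 7.02 TMM CPM) than in steady-state RPF (16.2 and 3.53), without a call. The other macrophage markers had lower means in FRC. The neutrophil markers summed to 47.3 to 350 TMM CPM in steady-state RPF, against 0.99 to 6.56 in FRC, where Camp was at 0, and the 9 erythroid markers to 195 to 812, against 0.507 to 99.2, where Epor was at 0. The platelet markers came to 21.0 to 26.2 TMM CPM in steady-state RPF, against 5.7 to 20.2 in FRC. Itga2b of this list had a higher mean in FRC (7.34) than in steady-state RPF (3.84). The mural and smooth muscle markers came to 862 to 1317 TMM CPM in steady-state RPF, against 1875 to 2655 in FRC. Of these, only Rgs5 and Cspg4 were called, both lower in steady-state RPF, and Cnn1 had a higher mean there (3.06) than in FRC (1.95). Acta2 had 415, 1175 and 308 TMM CPM in the FRC libraries. The part of these other cells in the transporter values of RPF and FRC was not tested.

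Slc7a2 (chromosome 8, 40862396 to 40922308) had 408, 362 and 312 TMM CPM in steady-state RPF, against 8.71, 14.7 and 4.65 in FRC. No library came near the other group (log2 fold change 5.27, SE 0.40, edgeR adjusted p = 2.06e-05). Slc7a1 was slightly lower in steady-state RPF than in FRC (log2 fold change -0.83, SE 0.26, edgeR adjusted p = 0.0417), a call that 12 of 19 alternatives took away, with adjusted p values between 0.007 and 0.167; it was lost with upper quartile scaling (0.0874) and without any one of the steady-state RPF libraries (0.0969, 0.132 and 0.0935), FRC replicate 1 (0.1) or 2 (0.129), or depleted RPF replicate 2 (0.0553) or 3 (0.0617). Per kilobase, the sum of both cationic carriers was 128, 113 and 102 TMM CPM in steady-state RPF, against 33.2, 40.9 and 19.7 in FRC. The size of this difference depends on the lengths used. With the exon-union lengths Slc7a2 averaged 39.5 TMM CPM per kilobase in steady-state RPF and 1.03 in FRC, and Slc7a1 2.76 and 4.91.

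Slc7a5 (chromosome 8, 121881150 to 121907694) had 208, 307 and 203 TMM CPM in steady-state RPF, against 34.6, 70.1 and 64.2 in FRC. The groups were clearly apart (log2 fold change 2.09, SE 0.30, edgeR adjusted p = 0.000906). Its heavy chain Slc3a2 differed in the opposite direction, with 93.3, 127 and 129 TMM CPM in steady-state RPF, against 349, 428 and 517 in FRC (log2 fold change -1.89, SE 0.19, edgeR adjusted p = 0.000109). The y+L light chains also favoured FRC. Slc7a6 was lower in steady-state RPF at 18.6, 25.1 and 11.5 TMM CPM, against 89.3, 123 and 135 in FRC (log2 fold change -2.65, SE 0.31, edgeR adjusted p = 0.000277). Slc7a7 had 11.1, 9.12 and 7.28 TMM CPM in steady-state RPF, against 45.7, 19.0 and 40.1 in FRC (log2 fold change -1.93, SE 0.46, edgeR adjusted p = 0.0146), a call lost without steady-state RPF replicate 2 (0.0533) or 3 (0.0616). Slc7a7 shares 232 exon bases with Oxa1l on the other strand, and the strand setting of the counting is not given, so part of its counts could be those of Oxa1l. Slc7a8 had 0.341, 1.7 and 3.01 TMM CPM in steady-state RPF, against 16.7, 25.8 and 32.8 in FRC, without overlap and without a call (log2 fold change -3.90, SE 1.40, edgeR adjusted p = 0.0718).

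The glutamate carriers of Slc1 that could be tested were far lower in steady-state RPF. Slc1a3 (GLAST, chromosome 15, 8634124 to 8710764), best known from astrocytes, had 2.11, 0.0592 and 0.165 TMM CPM in steady-state RPF, against 275, 219 and 289 in FRC. The counts were 107 over the steady-state RPF libraries and 25143 over the FRC libraries (log2 fold change -8.34, SE 1.09, edgeR adjusted p = 0.000539). Of the 107 counts 99 were in steady-state RPF replicate 1, and without it the log2 fold change was -11.27 (edgeR adjusted p = 2.76e-05). Depleted RPF had 0.0574, 0.135 and 0 TMM CPM of it, which edgeR did not call against steady-state RPF (adjusted p = 0.0976), though DESeq2 did (0.0389); without steady-state RPF replicate 1 that log2 fold change was -0.72, and -3.66 with it. Slc1a2 (GLT-1) had 0, 0.0197 and 0 TMM CPM in steady-state RPF, against 4.37, 1.67 and 0.686 in FRC, an edgeR adjusted p of 0.0123. With 1 count over the steady-state RPF libraries, the ratio of FRC to steady-state RPF was 288 with a 95% counting interval of 51.2 to 11441, and the call was lost without steady-state RPF replicate 1 (0.0596) or 3 (0.0603). The neuronal carriers Slc1a1 and Slc1a6 reached at most 0.444 and 1.16 TMM CPM in any library.

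Of the glutamine carriers, Slc1a5 and Slc38a2 were lower in steady-state RPF, Slc38a1 was higher, and Slc38a5 and Slc38a7 were not called. Slc1a5 had 122, 78.5 and 98.6 TMM CPM in steady-state RPF, against 617, 669 and 557 in FRC (log2 fold change -2.63, SE 0.19, edgeR adjusted p = 1.32e-05). Slc38a2 (chromosome 15, 96687392 to 96699730) had 83.1, 66.0 and 61.3 TMM CPM in steady-state RPF, against 534, 508 and 594 in FRC, without overlap (log2 fold change -2.96, SE 0.21, edgeR adjusted p = 1.26e-05). The system A relative Slc38a1 (SNAT1) ran the other way, with 0.681, 2.98 and 4.13 TMM CPM in steady-state RPF, against 0.0304, 0 and 0 in FRC. It had 1 count over the FRC libraries, so its ratio of 231 carries a 95% counting interval of 41.1 to 9142. Its edgeR adjusted p of 0.0278 rose above 0.05 under 8 of 18 alternatives, up to 0.0942, among them leaving out steady-state RPF replicate 2 (0.0604) or 3 (0.0672) and any one of the FRC libraries (0.0653, 0.079 and 0.082).

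Slc36a2 had 5 counts over the steady-state RPF libraries and 7507 over the FRC libraries. This was the widest fitted difference among the 30 genes (log2 fold change -10.89, SE 0.96, edgeR adjusted p = 4.97e-05). Its size rests on steady-state RPF replicate 2, without which it was -14.47 (edgeR adjusted p = 0.000308). Its neighbours in the genome did not share it. Slc36a1, which lies beside it on chromosome 11 (55204350 to 55236330), had 7.85, 4.86 and 10.5 TMM CPM in steady-state RPF, against 1.76, 6.59 and 6.59 in FRC, with overlap (edgeR adjusted p = 0.573), and Slc36a3 (55124815 to 55151708) had 1 count in all 9 libraries. Slc38a1, Slc38a2 and Slc38a4 also lie side by side on chromosome 15 (96571418 to 97055956). Of these, Slc38a1 was higher and Slc38a2 lower in steady-state RPF than in FRC, and Slc38a4 had 4 counts over the steady-state RPF libraries and 1 over the FRC libraries.

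Slc6a6 (chromosome 6, 91684053 to 91759066) had 182, 228 and 144 TMM CPM in steady-state RPF, against 54.2, 64.2 and 116 in FRC. FRC replicate 3 came nearest to the RPF libraries (log2 fold change 1.24, SE 0.30, edgeR adjusted p = 0.015). The call was lost without steady-state RPF replicate 2 (0.0574) or FRC replicate 2 (0.0524). Slc6a8, which carries creatine, had 5.17, 11.5 and 5.56 TMM CPM in steady-state RPF, against 15.3, 22.4 and 15.5 in FRC, and did not pass (edgeR adjusted p = 0.0766).

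In the Slc43 family, Slc43a3 had 573, 445 and 557 TMM CPM in steady-state RPF, against 1127, 1323 and 1319 in FRC (log2 fold change -1.26, SE 0.16, edgeR adjusted p = 0.000383). Slc43a1 (chromosome 2, 84838850 to 84863594), its neighbour on chromosome 2, had 3.6, 17.2 and 16.1 TMM CPM in steady-state RPF, against 94.2, 85.3 and 118 in FRC (log2 fold change -3.01, SE 0.52, edgeR adjusted p = 0.00288). Both sets of libraries were apart from those of FRC. Slc43a2 was not called (edgeR adjusted p = 0.17). Slc38a10 differed little, with 286, 305 and 349 TMM CPM in steady-state RPF, against 357, 382 and 362 in FRC (log2 fold change -0.23, SE 0.13, edgeR adjusted p = 0.238).

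**Figure D4:**
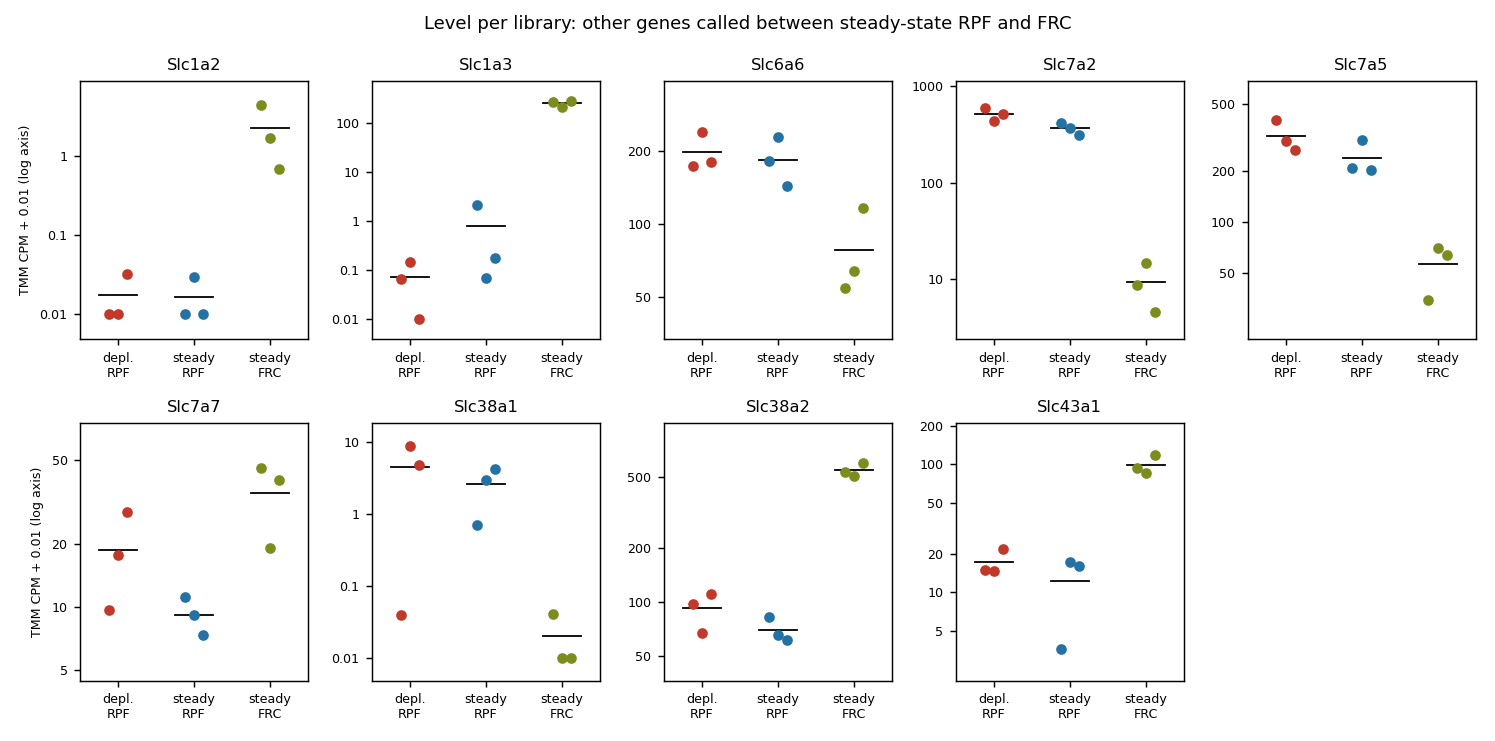
Level per library (TMM CPM plus 0.01, log axis) of the 9 transporter genes called between steady-state RPF and FRC and not between the RPF groups, in depleted RPF (left), steady-state RPF (middle) and FRC (right) of each panel. Points are libraries and lines are group means. The steady-state RPF and FRC libraries do not overlap for any of these 9 genes.

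Genes of amino acid metabolism that are not carriers of these families were read from 9 lists. Over all genes tested, 21.0% were called after depletion (11.1% higher and 9.96% lower). Between steady-state RPF and FRC, 25.9% were called (11.5% higher and 14.4% lower in RPF). The amino acid response list holds Atf4, targets of ATF4 and other genes of the response such as Eif2ak3, Eif2ak4 and Cebpg. In it 11 of 23 tested genes rose after depletion and 0 fell (47.8% called), with a median log2 fold change of 0.95. The 11 genes became 7 without depleted RPF replicate 3 or steady-state RPF replicate 1 or 3, 5 without steady-state RPF replicate 2 and 7 without both libraries short of Y-linked counts, with 0 called lower each time. Atf4 itself averaged 443 ± 5.39 TMM CPM in depleted RPF, 156 ± 21.1 in steady-state RPF and 719 ± 29.4 in FRC (SD, n = 3 each), and rose 2.85-fold over steady-state RPF (edgeR adjusted p = 6.25e-05). Asns, which makes asparagine, averaged 149 ± 30.8 TMM CPM in depleted RPF, against 37.9 ± 3.48 in steady-state RPF (edgeR adjusted p = 0.00104). Psat1, of serine synthesis, averaged 106 ± 7.93 against 16.1 ± 1.82 TMM CPM in the same groups (edgeR adjusted p = 0.00136). Shmt2, of mitochondrial serine breakdown, averaged 112 ± 5.79 against 58.1 ± 12.0 TMM CPM (edgeR adjusted p = 0.00365). Against FRC, 3 genes of this list were higher and 11 lower in steady-state RPF (60.9% called, against 25.9% of all genes tested, median log2 fold change -0.90). Among the lower ones were Atf4 (4.62-fold), Atf3 (48.1-fold) and Ppp1r15a (10.7-fold), stress genes that are known to respond to many signals. Without steady-state RPF replicate 1 these counts were 1 and 7, and without both libraries short of Y-linked counts 1 and 5.

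In the list for arginine, polyamines and creatine, 5 of 16 tested genes rose after depletion and 2 fell (43.8% called, against 21.0% of all genes tested). The risen genes included Odc1, the first enzyme of polyamine synthesis, at 167 ± 26.0 TMM CPM in depleted RPF, against 42.8 ± 6.24 in steady-state RPF (edgeR adjusted p = 0.000484). Srm, spermidine synthase, averaged 261 ± 27.4 TMM CPM in depleted RPF, against 45.9 ± 11.7 in steady-state RPF (edgeR adjusted p = 0.000889), and Sat1, which acetylates polyamines for export, 291 ± 59.4 against 84.1 ± 12.6 (edgeR adjusted p = 0.000321). Gamt, of creatine synthesis, fell to 6.12 ± 1.98 TMM CPM in depleted RPF, against 17.2 ± 0.281 in steady-state RPF (edgeR adjusted p = 0.008). Against FRC, 3 genes of the list were higher and 5 lower in steady-state RPF, with Odc1 7.24-fold lower (edgeR adjusted p = 3.72e-05).

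In the list for glutamine, glutamate and GABA, 1 of 15 tested genes rose and 3 fell after depletion (26.7% called, near the 21.0% of all genes tested). Abat, which breaks down GABA, averaged 47.1 ± 10.9 TMM CPM in depleted RPF, against 385 ± 52.4 in steady-state RPF, an 8.16-fold fall (edgeR adjusted p = 7.23e-05). Against FRC, 1 gene of this list was higher and 6 were lower in steady-state RPF (46.7% called, against 25.9% of all genes tested). Glul, glutamine synthetase, averaged 36.8 ± 1.1 TMM CPM in steady-state RPF, against 301 ± 4.86 in FRC (edgeR adjusted p = 4.5e-06), and Gfpt2, which uses glutamine to make hexosamine, 6.65 ± 1.12 against 3080 ± 293 (edgeR adjusted p = 5.35e-07).

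The lysosomal list, with mTORC1 and its amino acid sensors, had 2 of 22 tested genes higher and 2 lower after depletion. This is 18.2%, near the 21.0% called of all genes tested. Sesn1, a leucine sensor, fell 5.94-fold to 7.23 ± 1.71 TMM CPM in depleted RPF, against 42.9 ± 2.72 in steady-state RPF (edgeR adjusted p = 0.000238). Among other carriers at the plasma membrane and lysosome, 1 of 9 tested genes rose and 2 fell (33.3% called). Slc15a3, a lysosomal carrier of peptides and histidine, averaged 203 ± 32.9 TMM CPM in depleted RPF, against 12.4 ± 2.61 in steady-state RPF, a 16.4-fold rise (edgeR adjusted p = 1.74e-05), while the lysosomal cystine carrier Ctns and the sialic acid carrier Slc17a5 fell 3.93-fold and 4.45-fold (edgeR adjusted p = 0.00359 and 0.000735). Of 12 mitochondrial amino acid carriers tested, 3 rose and 0 fell after depletion, among them the serine carrier family member Sfxn3 (2.25-fold, edgeR adjusted p = 0.000387) and the glutamate carrier Slc25a22 (3.19-fold, edgeR adjusted p = 0.00214).

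In the list for branched-chain and aromatic amino acids 1 of 13 tested genes rose and 3 fell after depletion (30.8% called, against 21.0% of all genes tested). Those that fell included Ivd, of leucine breakdown (2.77-fold lower, edgeR adjusted p = 0.000706). In the list for glycine, taurine and betaine 2 of 12 rose and 1 fell. Against FRC this last list had 0 genes higher and 6 lower in steady-state RPF, where Slc5a3, the carrier of the osmolyte inositol, was 8.46-fold lower (edgeR adjusted p = 1.47e-05). Of the 3 vesicular carriers tested, 0 were called after depletion by edgeR, DESeq2 or limma-voom, and 0 had an unadjusted p under 0.05 by edgeR. With so few genes a list, leaving out 1 library moved several of these counts. After depletion the branched-chain list had 1 gene higher and 1 lower without steady-state RPF replicate 3, and 0 higher and 3 lower without replicate 2. After depletion, too, the glutamine list had 0 genes higher and 2 lower without steady-state RPF replicate 1, 2 or 3 or depleted replicate 1 or 2, and the lysosomal list had 0 higher and 1 lower without depleted replicate 2 or steady-state RPF replicate 2 or 3, and 1 and 1 without depleted replicate 1 or 3. Against FRC the arginine list had 2 genes higher and 3 lower without steady-state RPF replicate 1 or 2, and 1 higher and 4 lower without replicate 3. In the same comparison the glycine, taurine and betaine list had 2 genes lower without steady-state RPF replicate 2 or 3 or FRC replicate 1 or 3, and 3 lower without steady-state RPF replicate 1 or depleted replicate 2.

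**Figure D5:**
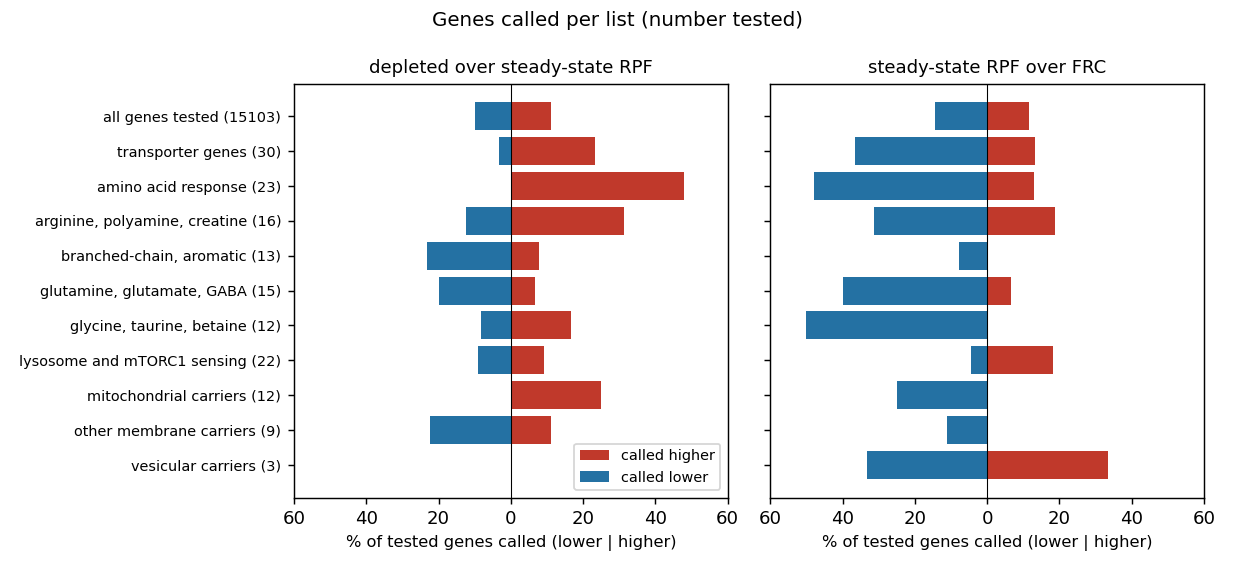
Share of tested genes called higher (red, to the right) and lower (blue, to the left) at an edgeR adjusted p under 0.05 in all genes, the transporter genes and 9 lists of amino acid metabolism, with the number tested in brackets, for depleted over steady-state RPF (left panel) and steady-state RPF over FRC (right panel). In the amino acid response list 11 of 23 genes were higher and 0 lower in depleted RPF, and 3 were higher and 11 lower in steady-state RPF than in FRC.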

How the data were processed

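The authors deposited unnormalized counts of reads for each Ensembl gene. Tools listed in the submitters' processing notes are STAR 2.5.3a, HTSeq 0.6.1p1, Bowtie2 2.2.8 and cutadapt 1.10, with mm10 as the genome build. Neither the strand setting of the counting nor the annotation release is given in the sources used here, so counts are uncertain for genes with exon bases shared with a gene on the other strand of similar or higher count (among the tested ones Slc6a9, Slc7a4, Slc7a7 and Slc7a10). The 24 other per-sample columns were not used. The median transcript length in the deposited table served for levels per kilobase.

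Of the 27370 genes, 881 had no count and 15103 passed filterByExpr. A single edgeR 4.0.16 model with 3 group terms was used under R 4.3.3 (TMM scaling, robust quasi-likelihood, 6 residual degrees of freedom). P-values were Benjamini-Hochberg adjusted over all genes tested, two-sided, with calls under 0.05. The labels do not say which FRC and RPF libraries share mice, so all libraries were treated as independent, and p-values measure the spread between pools of 2 mice. Where a group had 1 to 3 counts, a ratio of scaled counts with a 95% counting interval is given, which covers counting error only.

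Named genes are all called members with a mean of at least 1 TMM CPM in the higher group, members with a mean of at least 50 TMM CPM in any group, the heavy chains, and up to 4 called genes with the smallest p per list and comparison. Further members are given for completeness, and 1 member is not reported by name here. The members and lists were chosen with earlier results of these data known, and the pairing of light chains and of cationic carriers into sums was made after seeing the values. In simulated counts for 15103 genes, of which 100 changed 2-fold and 100 changed 4-fold, the model found 6% and 35% of these for depletion and 8% and 40% for RPF against FRC. It gave 0 calls of the wrong sign, and 6 and 0 false calls. Far fewer genes changed in the simulation than the 3176 and 3908 that were called in the data. The adjustment of p-values is stricter when few genes change, so the shares found do not measure the power of the fit to the data. The 19 alternatives covered scaling (RLE, upper quartile), filtering (none, 1 CPM), the tool (DESeq2 1.42.0, limma-voom with limma 3.58.1), a prior that is not robust, a fit of the compared groups alone, a term for Y-linked reads, each of the 9 libraries left out, and both libraries short of Y-linked reads left out. This last one and the GENCODE lengths were added after seeing the data. Python 3.11.15 with matplotlib 3.10.9 drew the figures.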

Additional observations from a re-analysis of the deposited data

How the results depend on the processing

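Under the 19 alternatives, 5 of the 8 transporter calls after depletion (Slc1a5, Slc3a2, Slc7a1, Slc7a6 and Slc36a2) and 10 of the 15 calls between steady-state RPF and FRC held every time. Leaving out 1 library gave 5 to 9 called transporter genes after depletion, with 8 in the full fit, and 11 to 16 between steady-state RPF and FRC, with 15 in the full fit. Over all genes the ranges were 2144 to 3290 and 2838 to 3706. For the 9 lists together, with 39 and 47 genes called, they were 24 to 39 (24 without steady-state RPF replicate 2 or 3) and 27 to 43 (27, 29 and 30 without steady-state RPF replicate 2, 1 and 3), and 26 were called between steady-state RPF and FRC without both libraries short of Y-linked reads. These fits have fewer samples. DESeq2 called 10 and 17 transporter genes (33.3% and 56.7% of those tested, against 28.5% and 32.9% of all genes) and limma-voom 9 and 16 (30.0% and 53.3%, against 26.2% and 31.9%). Upper quartile scaling shifted the median log2 fold change of all genes between steady-state RPF and FRC from -0.02 to 0.14, and the share of calls that were higher from 44.4% to 54.2%.

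Signs turned round only for log2 fold changes that were not called. After depletion, leaving out 1 library gave -1.66 to 1.73 for Slc1a2 (0.10 in the full fit), -0.13 to 1.36 for Slc38a1 (0.78) and -0.06 to 0.28 for Slc6a6 (0.10). Without both libraries short of Y-linked reads Slc1a2 was at -0.34, with limma-voom Slc38a1 was at -0.55, and with a term for Y-linked reads Slc6a6 was at -0.03. Between steady-state RPF and FRC, leaving out 1 library gave -2.06 to 3.71 for Slc38a4 (1.67), and Slc38a9 (0.46) was at -0.03 without both libraries short of Y-linked reads. The cause was not tested.

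No paired analysis was possible because the labels give no number or name that links libraries of different groups. Depth ran from 25414645 to 43879806 counts per library, so genes under the filter rest on few counts, often in 1 library of a group.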

Other observations

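Of the 17 transporter genes below the filter, several had counts in single libraries. Slc6a2, the noradrenaline carrier, had 7.65, 0 and 2.89 TMM CPM in FRC and at most 0.0662 in RPF. Slc6a15, a carrier of branched-chain amino acids and proline in brain, and Slc6a4, the serotonin carrier, had 3.53 and 2.41 TMM CPM in depleted RPF replicate 1 and 0 in the other 8 libraries. Slc6a17, a synaptic vesicle carrier, had 0, 4.03 and 0.537 TMM CPM in FRC and 0 in RPF, and Slc38a3, a system N glutamine carrier, had 4.32 in FRC replicate 3 and 0 elsewhere. The 9 markers of Schwann cells and neurons in the table summed to 1.52 to 3.94 TMM CPM in depleted RPF, 0.265 to 1.28 in steady-state RPF and 3.14 to 7.38 in FRC, highest in FRC replicate 1, and Th and Dbh, which make noradrenaline, had 0 counts in FRC. Their part in the Slc6a2 counts was not tested.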
